A study of Mus musculus with 6 samples.

Results

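The genes described here build and run the mitotic spindle. They are 43 genes chosen by name, of which 38 were among the 15224 genes tested in all: the cyclins and kinases that start mitosis, the kinetochore and its checkpoint, the spindle kinesins, and the ubiquitin ligase pathway that ends it. Symbols were matched with their older synonyms, and a gene was represented by its brightest probe. Of the 43, 39 had a named probe. Ccnb1, Cdc25c, Bub3 and Spc24 were matched to none of the named probes and are not analysed here, and the probe of Incenp was blank on all 6 arrays. No filter on low values removed any gene with a measurement.

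The cells were CH12F3-2A, a mouse line derived from a B cell lymphoma, which switches from IgM to IgA when stimulated. Both groups were electroporated with siRNA, a control siRNA in siControl (3 samples) and one against Spt6 in siSpt6 (3 samples), and both received CD40 ligand, interleukin 4 and TGF-beta, a mixture called CIT, 24 h later. RNA was taken 24 h after CIT was added, so all samples were stimulated and an unstimulated group does not enter. Spt6, the product of Supt6, handles histones during transcript elongation by RNA polymerase II, and the study asked about its part in directing the deaminase AID to its targets. One array was hybridised per sample, in a single colour (Cy5), and gave a linear intensity with no physical unit.

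Entry into mitosis is driven by CDK1 bound to cyclin A or cyclin B. The kinases WEE1 and PKMYT1 hold CDK1 back, and CDC25 phosphatases release it. PLK1 and the Aurora kinases then mature the centrosomes and correct faulty attachments of chromosomes to the spindle. Unattached kinetochores keep a checkpoint active until all chromosomes are held, after which the anaphase-promoting complex (APC/C) with CDC20 marks securin and cyclin B for destruction, and separase cuts the sisters apart. Many of these genes are transcribed mainly in G2 and mitosis, through a promoter element called the cell cycle genes homology region (CHR), which binds MuvB complexes that contain B-Myb or FOXM1, and through CCAAT boxes bound by NF-Y. In B cells given CD40 ligand and interleukin 4, this programme accompanies rapid division, and class switching is known to depend on division.

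Many promoters of these genes carry both elements, and the letters of both are shown here. Whether either element has a part in the changes in siSpt6 was not tested. RefSeq start sites (GRCm38.p6) gave a window of 250 bases before and 50 after the start for 36 of the 43 genes; Ccna2, Cdc25c, Aurkb, Incenp, Spc24, Kif20a and Tpx2 were not matched. The CHR core was searched as TTTGAA, a variant of it as TTCGAA, and the CCAAT box as CCAAT, each on both strands. One pair of CCAAT matches in Ube2c, on opposite strands, overlapped. TTTGAA was found in 24 of 36 windows (66.7%), against 18.1% of the windows of all 27025 genes in the RefSeq table and 13.7% of the 12193 genes tested on these arrays. CCAAT was found in 28 of 36 (77.8%), against 37.9% of all and 38% of tested genes, and TTCGAA in 4 of 36 (11.1%), against 1.57% and 1.89%. A TTTGAA within 50 bases of the start was present in 22 of 36 (61.1%), against 4.92% of all windows. These shares are descriptions of letters, not of binding.

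The 100 bases before the start are printed for the 7 tested genes that hold both TTTGAA and CCAAT in that stretch, and for Mad2l1 and Pttg1, which fell in siSpt6 and hold neither in the whole window. They are written along the gene from 5′ to 3′, and capitals mark the letters TTTGAA and, likewise, those of CCAAT, read on either strand. Coordinates are those of GRCm38.p6.
Cdk1, chr10:69352913-69353012, minus strand: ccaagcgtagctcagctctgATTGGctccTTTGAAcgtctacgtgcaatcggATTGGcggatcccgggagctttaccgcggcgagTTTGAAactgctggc
Kif11, chr19:37376282-37376381, plus strand: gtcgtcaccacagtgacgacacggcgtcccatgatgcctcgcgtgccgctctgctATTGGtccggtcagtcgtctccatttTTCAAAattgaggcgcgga
Ube2c, chr2:164769829-164769928, plus strand: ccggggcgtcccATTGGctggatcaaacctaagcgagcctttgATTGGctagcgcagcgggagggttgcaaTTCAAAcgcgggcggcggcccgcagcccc
Cdc20, chr4:118437344-118437443, minus strand: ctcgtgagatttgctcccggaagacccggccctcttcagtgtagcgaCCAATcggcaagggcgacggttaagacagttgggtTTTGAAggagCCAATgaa
Kif22, chr7:127042421-127042520, minus strand: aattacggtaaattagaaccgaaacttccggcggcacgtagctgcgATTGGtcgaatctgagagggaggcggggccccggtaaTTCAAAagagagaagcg
Espl1, chr15:102296193-102296292, plus strand: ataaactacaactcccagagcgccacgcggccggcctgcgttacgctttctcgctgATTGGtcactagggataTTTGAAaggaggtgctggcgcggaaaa
Top2a, chr11:99024190-99024289, minus strand: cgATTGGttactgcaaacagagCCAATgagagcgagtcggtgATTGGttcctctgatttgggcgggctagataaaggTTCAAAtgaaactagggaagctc
Mad2l1, chr6:66535121-66535220, plus strand: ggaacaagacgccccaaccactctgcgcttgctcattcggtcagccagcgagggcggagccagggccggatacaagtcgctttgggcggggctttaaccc
Pttg1, chr11:43425982-43426081, minus strand: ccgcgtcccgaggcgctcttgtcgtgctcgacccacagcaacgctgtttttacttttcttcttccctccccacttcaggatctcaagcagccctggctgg

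**Figure D1:**
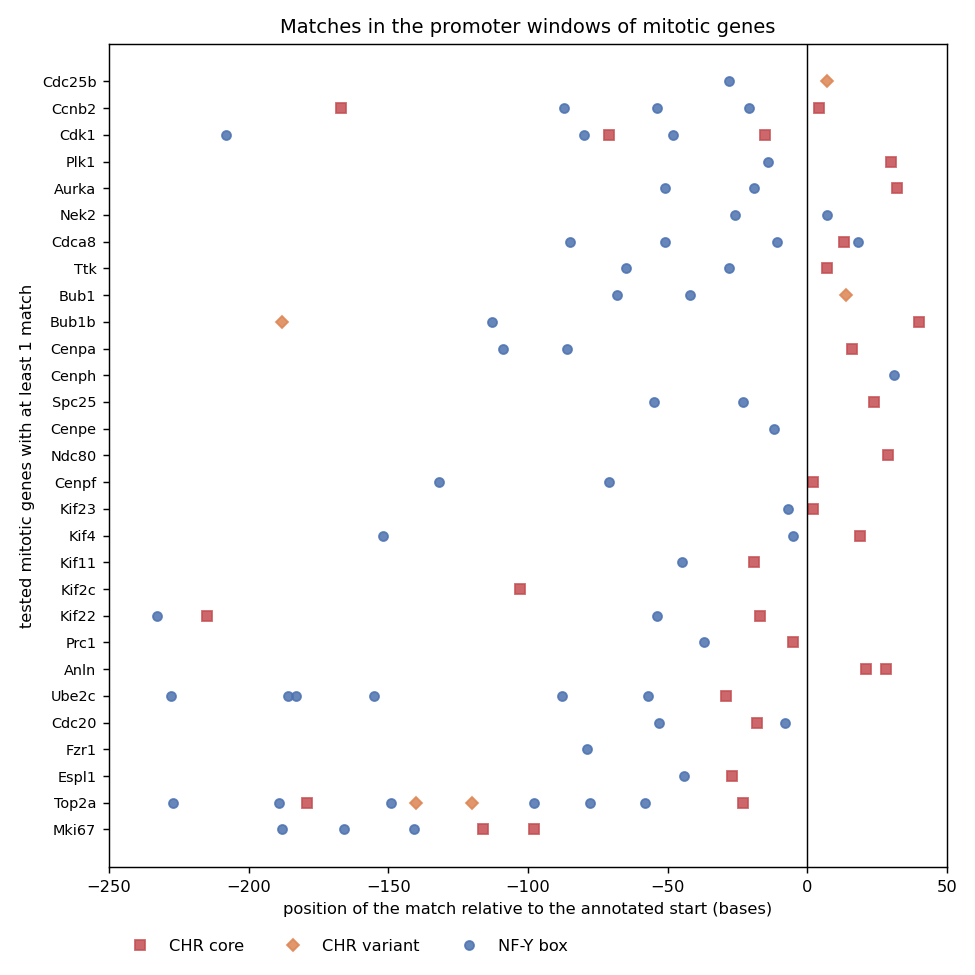
Position of matches to the CHR core, its variant and the CCAAT box (NF-Y box) in the promoter windows of the 29 tested mitotic genes that have at least 1 match, as distance from the annotated start in bases (horizontal axis), 1 gene per line. Most CHR core matches lie close to the start and most NF-Y boxes lie upstream of them, as in Cdk1, with cores 71 and 15 bases before the start and NF-Y boxes 208, 80 and 48 bases before it.

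Between 21526 and 22372 of 23473 probes had a value on an array, and array medians were close to 30. Over 20336 probes, which are not independent replicates, Pearson's r of log2 values was 0.988 to 0.991 for arrays of 1 group and 0.975 to 0.981 across groups. Of 10 B cell markers, 9 were tested, with summed intensities of 10750.1 to 12785 in siControl and 14519 to 16279 in siSpt6; the brightest were Cd79b (means 5787 and 8455) and Ms4a1 (means 4087 and 4331). Cd79b and Blk were higher and Cd22 lower in siSpt6 (limma adjusted p = 0.0391, 0.0393 and 0.0281). The 8 T cell markers summed to 1354 to 1510.1 and 869 to 1006, of which Cd28 was bright and lower in siSpt6 (means 1371 and 877, limma adjusted p = 0.0130), while Cd3e and Cd3g stayed under 3. The sums of 6 myeloid markers were 103 to 126 and 114 to 127, and those of 5 fibroblast markers 61.8 to 105 and 48.8 to 57.6, with 0 past the threshold in either list. The part of these markers in the changes described next was not tested. The Supt6 probe read 33.1, 32.1 and 32.1 in siControl and 25.1, 21.8 and 28.1 in siSpt6. The groups did not overlap, but the log2 difference of -0.38 (SE 0.13) missed the threshold (limma adjusted p = 0.0973), so siSpt6 below means the samples labelled so. The labels do not say whether replicates were separate cultures, so the p-values rest on sample-to-sample spread that could be purely technical.

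All 38 measured mitotic genes had a lower mean log2 level in siSpt6. Negative estimates made up 50.2% of all genes and 57.4% of those at or above the median level of tested probes. Of the 38, 14 (36.8%) fell past the threshold while 0 rose. Over all genes, 9.65% fell and 7.4% rose (limma, Benjamini-Hochberg adjusted p under 0.05 over all probes). Since 37 of the 38 lie at or above the median level of tested probes, genes at that level are the nearer comparison, and 15.2% of those fell and 8.38% rose. That cut is a log2 level of 4.98, and most of the 38 genes lie well above it, so this comparison is not matched for level. Over all 21584 probes, named or not, 8.9% fell and 7.43% rose. The median log2 change of the 38 genes was -0.44, against -0.00 over all genes and -0.07 over genes at or above the median level. At an unadjusted p under 0.05, 23 genes were lower and 0 higher. The share of all genes at that unadjusted threshold is not given here, so these counts have no comparison. The 3 siSpt6 values lay below the 3 siControl values in 27 of the 38 (71.1%), against 21.6% of all genes and 31.0% of genes at or above the median level; for the opposite order the shares were 0 of 38, 16.9% and 18.7%. In bulk RNA, fewer cells in G2 and mitosis and less RNA per such cell cannot be told apart.

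The shift was present on all 3 siSpt6 arrays and was smallest on replicate 3. Relative to each gene's siControl mean, the median over the 38 genes was -0.47, -0.50 and -0.34 (log2) on siSpt6 replicates 1, 2 and 3, and 0.01, 0.01 and -0.04 on siControl replicates 1, 2 and 3. On each siSpt6 array 37 of 38 genes were below their siControl mean. Replicate 3 was the highest of the siSpt6 arrays for 24 genes.

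**Figure D2:**
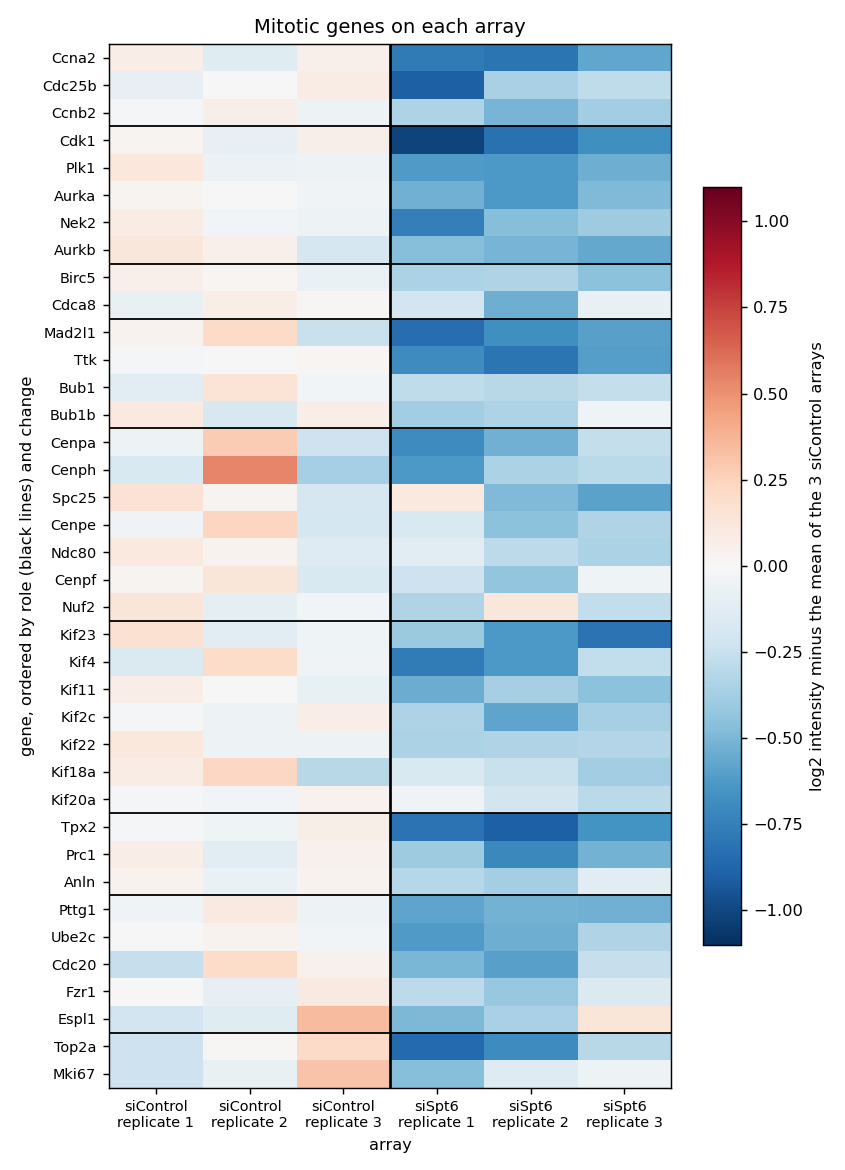
Log2 intensity of each of the 38 genes on each of the 6 arrays, minus the mean of the 3 siControl arrays (colour; blue is lower), ordered by role (black lines) and by change. The siSpt6 columns are blue for nearly all genes, and the exceptions are single arrays of Spc25, Nuf2 and Espl1.

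The size of the shift depended on the scaling, and its direction did not. Quantile normalization gave a median of -0.23 and 6 falls (15.8%, against 7.15% of all genes and 10.2% of genes at or above the median level, and 8.68% of all genes rose). Cyclic loess gave a median of -0.26 and 7 falls (18.4%, against 8.03% and 11.1%, and 8.51% of all genes rose). All 38 estimates were negative under both, though those of Kif20a and Nuf2 came to -0.01 and -0.00 after quantile normalization. Among all genes, 46.8% were negative after quantile normalization and 50.4% after cyclic loess (48.2% and 50.0% at or above the median level). The same scalings moved the share of rises among changed probes from 45.5% to 57.3% and 53.6%. Cdk1, Tpx2, Ttk, Plk1, Prc1 and Pttg1 fell under both normalizations, and Ccna2 after cyclic loess only (limma adjusted p = 0.0338, and 0.0510 after quantile). Aurka, Aurkb, Nek2, Kif11, Kif23, Mad2l1 and Ube2c missed the threshold under both. With 1 array left out, the count of falls was 4, 5 and 9 without siControl replicates 1, 2 and 3, and 8, 4 and 12 without siSpt6 replicates 1, 2 and 3. Cdk1, Tpx2, Ttk and Ccna2 kept their calls with any array left out.

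**Figure D3:**
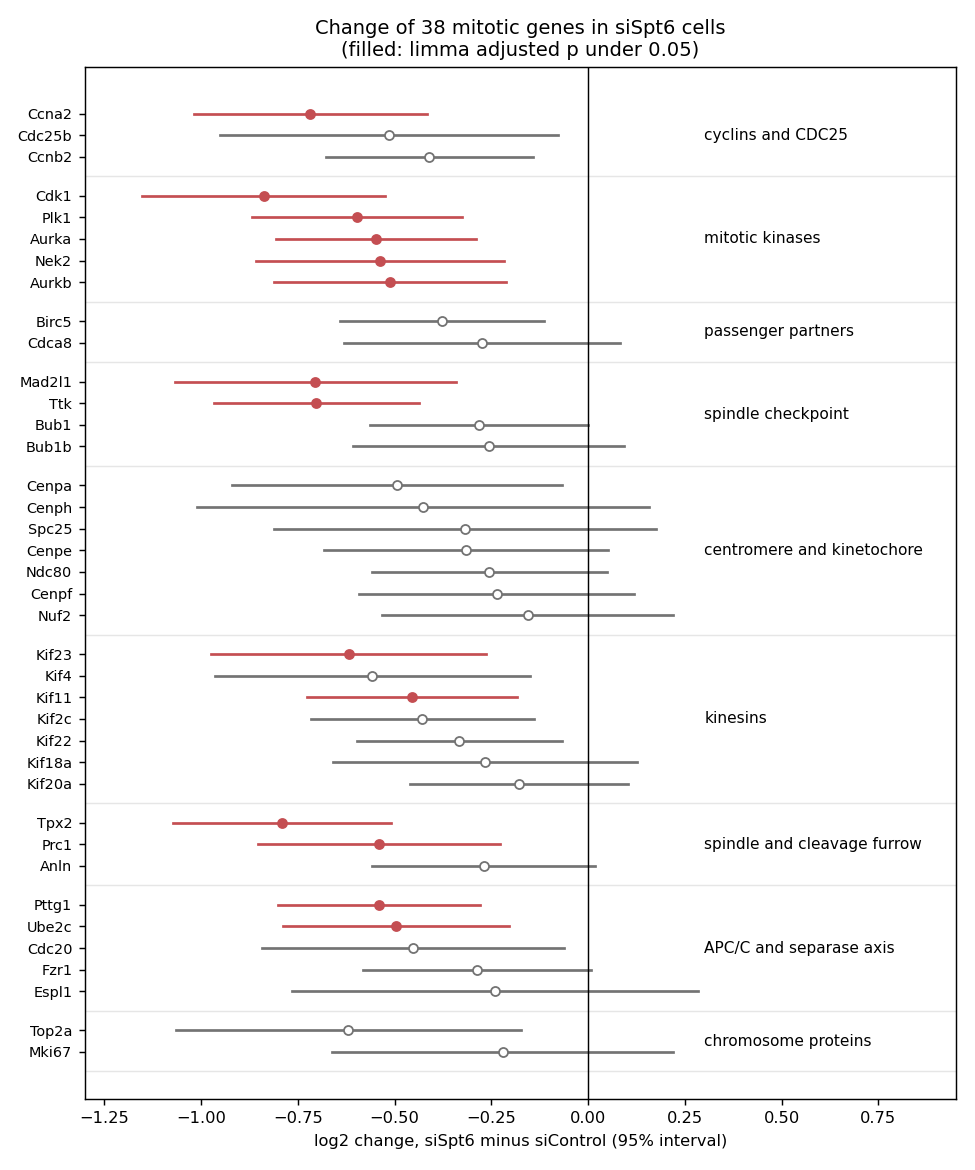
Log2 change of the 38 genes, siSpt6 minus siControl (horizontal axis), with limma's 95% confidence interval (lines), grouped by role. All points lie left of 0, from -0.84 (Cdk1) to -0.16 (Nuf2); filled red points are the 14 genes past the threshold.

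The 5 mitotic kinases outside the checkpoint all fell, against 9.65% of all genes and 15.2% of genes at or above the median level. The median log2 change of the 5 was -0.55. Cdk1 and Plk1 alone among them passed after quantile normalization and after cyclic loess. Without siControl replicates 1, 2 and 3 the falls numbered 1, 2 and 4, and without siSpt6 replicates 1, 2 and 3 they numbered 3, 1 and 4. Cdk1, the kinase that drives entry into mitosis (listed under its older symbol Cdc2a), read 2176, 2009 and 2228 in siControl and 1052, 1209 and 1339 in siSpt6. Every siSpt6 value lay far below the lowest control value. The mean fell from 2138 ± 114 to 1200.2 ± 144 (intensity ± SD, n = 3 each), a log2 change of -0.84 (SE 0.13, limma adjusted p = 0.00793), the largest among the 38 genes. Plk1, the Polo kinase of centrosome maturation and cytokinesis, read 301, 265 and 267 against 179.5, 179 and 191. It fell by 0.60 on the log2 scale (SE 0.11, limma adjusted p = 0.0155). That call was lost without siControl replicate 1, siSpt6 replicate 1 or siSpt6 replicate 2 (limma adjusted p up to 0.0554).

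Aurka, the Aurora kinase of the spindle poles, read 966, 949 and 922 in siControl and 655, 609.6 and 677 in siSpt6, so the groups were narrow and well apart. Its change was -0.55 (SE 0.11, limma adjusted p = 0.0176). Nek2, a kinase of centrosome separation, read 679, 629 and 616 against 381, 462 and 488, a change of -0.54 (limma adjusted p = 0.0391). Aurkb, the catalytic subunit of the chromosomal passenger complex, read 1322, 1263 and 1067 against 877, 852 and 823, a change of -0.51 (limma adjusted p = 0.0373). The groups did not overlap for either gene. Leaving out single arrays took limma adjusted p up to 0.0612 for Aurka, 0.111 for Nek2 and 0.110 for Aurkb, each without siControl replicate 1. Aurka also missed the threshold without siControl replicate 2 or siSpt6 replicates 1 or 2, and Nek2 and Aurkb on removal of 5 of the 6 single arrays.

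Of the partners of Aurkb in the passenger complex, neither passed the threshold. Birc5 (survivin) read 1573, 1535 and 1436 against 1187, 1204 and 1105. The groups were apart by a wide gap, with a change of -0.38 (SE 0.11, limma adjusted p = 0.0627). Cdca8 (borealin) had overlapping groups and a change of -0.27 (limma adjusted p = 0.277).

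Among the activators of CDK1, Ccna2 fell. Cyclin A2 acts in S phase and in G2, and its gene read 1617, 1404 and 1602 in siControl and 896, 882 and 1034 in siSpt6. The mean went from 1541 ± 119 to 938 ± 84.2 (intensity ± SD, n = 3 each), a change of -0.72 (SE 0.13, limma adjusted p = 0.0116). Ccnb2, a B-type cyclin, read 1029, 1084 and 1001 against 821, 728 and 796. All siSpt6 values were lower, but the change of -0.41 (SE 0.11) missed the threshold by little (limma adjusted p = 0.0517). Cdc25b, a phosphatase that removes inhibitory phosphate from CDK1, read 213, 228 and 241 against 122, 177 and 186. The change of -0.51 (SE 0.18, limma adjusted p = 0.111) had a large error because siSpt6 replicate 1 lay well below the other two siSpt6 values.

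**Figure D4:**
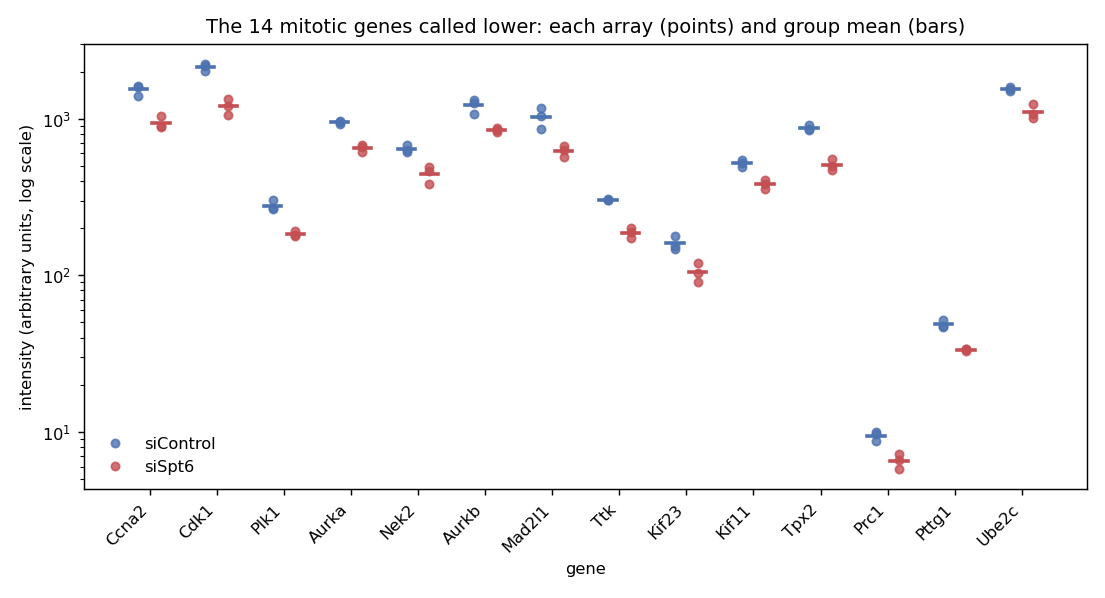
Intensity on each array (points) and group mean (bars) of the 14 mitotic genes past the threshold, on a log axis, siControl in blue and siSpt6 in red. In each gene the 3 siSpt6 points lie below the 3 siControl points; Prc1 is the dimmest, at group means of 9.44 and 6.5.

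The checkpoint genes divided into a pair that fell and a pair that did not pass. The falls made up 50.0% of the 4 measured, against 9.65% of all genes and 15.2% of genes at or above the median level. Ttk, the kinase (MPS1) that sets up the checkpoint at unattached kinetochores, read 301, 303 and 309 in siControl and 188, 174 and 200.3 in siSpt6. The control values were nearly equal and the siSpt6 values were all much lower, with a change of -0.70 (SE 0.11, limma adjusted p = 0.00810). Mad2l1, encoding MAD2, the checkpoint's inhibitor of CDC20, read 1042, 1171 and 857 against 568, 635 and 669. Its change was also -0.70 (SE 0.15, limma adjusted p = 0.0238), lost without siControl replicates 1 or 2 or siSpt6 replicates 1 or 2 (limma adjusted p up to 0.0723). Bub1, a kinase that recruits other checkpoint proteins, read 503, 604 and 533 against 448, 442 and 454. Bub1 values did not overlap between groups, and the change was -0.28 (95% interval -0.56 to 0.00, limma adjusted p = 0.165). Bub1b, encoding BUBR1, overlapped between groups (change -0.26, limma adjusted p = 0.298).

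None of the 7 measured centromere and kinetochore genes passed the threshold in the deposited values. At an unadjusted p under 0.05, 1 of them was lower, a count with no share of all genes beside it. The median log2 change of the 7 genes was -0.32. Cenpa, the histone H3 variant that marks the centromere, read 2194, 2763 and 1949 in siControl and 1408, 1583 and 1899 in siSpt6. The groups came close but did not overlap, and the change was -0.49 (SE 0.18, limma adjusted p = 0.116). Cenpa passed when only bright probes were tested (limma adjusted p = 0.0382) and with limma's trend and robust options (limma adjusted p = 0.0385). The other 6 overlapped between groups, with changes of -0.43 for Cenph (inner kinetochore), -0.32 for Spc25 and -0.26 for Ndc80 and -0.16 for Nuf2 (the microtubule-binding NDC80 complex), -0.32 for Cenpe (a kinetochore kinesin) and -0.24 for Cenpf. Limma adjusted p for these 6 lay between 0.226 (Cenpe) and 0.569 (Nuf2). Several errors were large: Cenph read 916, 1498 and 799 in siControl, and its interval ran from -1.01 to 0.16. Even for Nuf2, the interval of -0.53 to 0.22 includes a fall the size of that of Aurkb, so a difference in response from the kinases is not shown. Whether the kinetochore genes moved less than the kinases was not tested.

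Of 7 kinesins 2 fell (28.6%), against 9.65% of all genes and 15.2% of genes at or above the median level. The median change of the 7 was -0.43. After quantile normalization and after cyclic loess, 0 kinesins fell. Kif23 (MKLP1), a motor of the central spindle, read 179, 148 and 154 in siControl and 120.2, 103 and 90.9 in siSpt6, a change of -0.62 (SE 0.15, limma adjusted p = 0.0347). Kif11 (Eg5), which pushes the spindle poles apart, read 548, 523 and 494 against 358, 404 and 381, a change of -0.45 (SE 0.11, limma adjusted p = 0.0391). The groups of both genes were separate, but the call of Kif11 did not survive the removal of any of the 6 arrays (limma adjusted p at most 0.115), and that of Kif23 the removal of 5 of the 6 (at most 0.101). Kif4, a chromokinesin, changed by -0.56 (limma adjusted p = 0.0723), and Kif2c (MCAK), a microtubule depolymerase, by -0.43 (limma adjusted p = 0.0567). Kif22, another chromokinesin, changed by -0.33 (limma adjusted p = 0.0934). These 3, and Kif20a (MKLP2, change -0.18), were lower on every siSpt6 array than on any siControl array without passing. That order held for 21.6% of all genes and 31.0% of genes at or above the median level. For Kif20a the gap was small, with a highest siSpt6 value of 528 and a lowest siControl value of 532. Kif18a, which dampens chromosome movement, overlapped between groups (change -0.27).

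Tpx2, which activates Aurora A and nucleates spindle microtubules, had the smallest adjusted p of the 38 genes. It read 861, 846 and 915 in siControl and 497, 468 and 553 in siSpt6, with no value between the groups. The mean fell from 874 ± 36.5 to 506 ± 42.9 (intensity ± SD, n = 3 each), a change of -0.79 (SE 0.12, limma adjusted p = 0.00675). Prc1, which bundles microtubules of the central spindle, read 9.90, 8.70 and 9.72 against 7.18, 5.77 and 6.56, a change of -0.54 (limma adjusted p = 0.0352). Its probe is very dim, with an unknown background, and removing 1 array ended its call for 5 of the 6 arrays (limma adjusted p at most 0.103), as did limma's trend and robust options (limma adjusted p = 0.0728). Anln (anillin), a scaffold of the cleavage furrow, was lower on all siSpt6 arrays, but its change of -0.27 did not pass (limma adjusted p = 0.190).

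Of 5 genes of the APC/C pathway and sister separation, Pttg1 and Ube2c fell. That share was 40.0%, against 9.65% of all genes and 15.2% of genes at or above the median level. The 2 falls became 1 (Pttg1) after either normalization. Falls numbered 0, 0 and 1 without siControl replicates 1, 2 and 3, and 0, 0 and 2 without siSpt6 replicates 1, 2 and 3. Pttg1 (securin), the inhibitor of separase, read 47.2, 52.0 and 46.8 in siControl and 32.6, 33.9 and 33.8 in siSpt6. The change was -0.54 (SE 0.11, limma adjusted p = 0.0191), and it was lost without siControl replicates 1 or 2 or siSpt6 replicates 1 or 2 (limma adjusted p up to 0.0667). Ube2c, a ubiquitin-conjugating enzyme of the APC/C, read 1541, 1594 and 1512 against 1008, 1065 and 1233, a change of -0.50 (SE 0.12, limma adjusted p = 0.0375). Removing 1 array ended that call for 5 of the 6 arrays (limma adjusted p at most 0.106). Cdc20, the activator of the APC/C in mitosis, read 1179.9, 1621 and 1453 against 993, 927 and 1179. The highest siSpt6 value all but met the lowest control value, and the change of -0.45 (SE 0.16) did not pass (limma adjusted p = 0.116). Fzr1 (CDH1), its activator in late mitosis and G1, changed by -0.29 (limma adjusted p = 0.177). Espl1, separase itself, overlapped between groups (change -0.24, limma adjusted p = 0.525).

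Of the chromosome proteins, Top2a, the topoisomerase that untangles sister chromatids, read 1572, 1846 and 2129.8 in siControl and 1012, 1135 and 1484 in siSpt6. All siSpt6 values were lower, but both groups were wide, and the change of -0.62 (SE 0.19) missed the threshold (limma adjusted p = 0.0692). Mki67, the proliferation marker Ki-67, read 569, 626 and 824 against 480.4, 604 and 639.8. Its groups overlapped, with a change of -0.22 (95% interval -0.66 to 0.22, limma adjusted p = 0.486).

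Of the 24 genes that did not pass, 6 had a limma adjusted p under 0.1. Their changes ran from -0.62 (Top2a) to -0.16 (Nuf2), overlapping those of the 14 that fell, from -0.84 (Cdk1) to -0.45 (Kif11). The median SE was 0.152 in the former and 0.125 in the latter. TTTGAA was present in 8 of 11 promoter windows of genes that fell (72.7%) and in 15 of 23 of those that did not pass (65.2%), and CCAAT in 9 of 11 (81.8%) and 17 of 23 (73.9%). The difference between these shares was not tested.

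Other genes of mitosis, in 9 lists, held both falls and rises. Of 125 measured, 35 fell (28.0%, against 9.65% of all genes and 15.2% of genes at or above the median level) and 5 rose (4.0%, against 7.4% and 8.38%). Their median log2 change was -0.36, and 20 estimates were positive. Quantile normalization left 23 falls (18.4%, against 7.15% and 10.2%) and 5 rises with a median of -0.23. Cyclic loess left 26 falls (20.8%, against 8.03% and 11.1%) and 6 rises with a median of -0.25. With 1 array left out the falls numbered 14, 14 and 24 without siControl replicates 1, 2 and 3, and 16, 17 and 27 without siSpt6 replicates 1, 2 and 3. The rises numbered 2 or 3 under each of these.

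**Figure D5:**
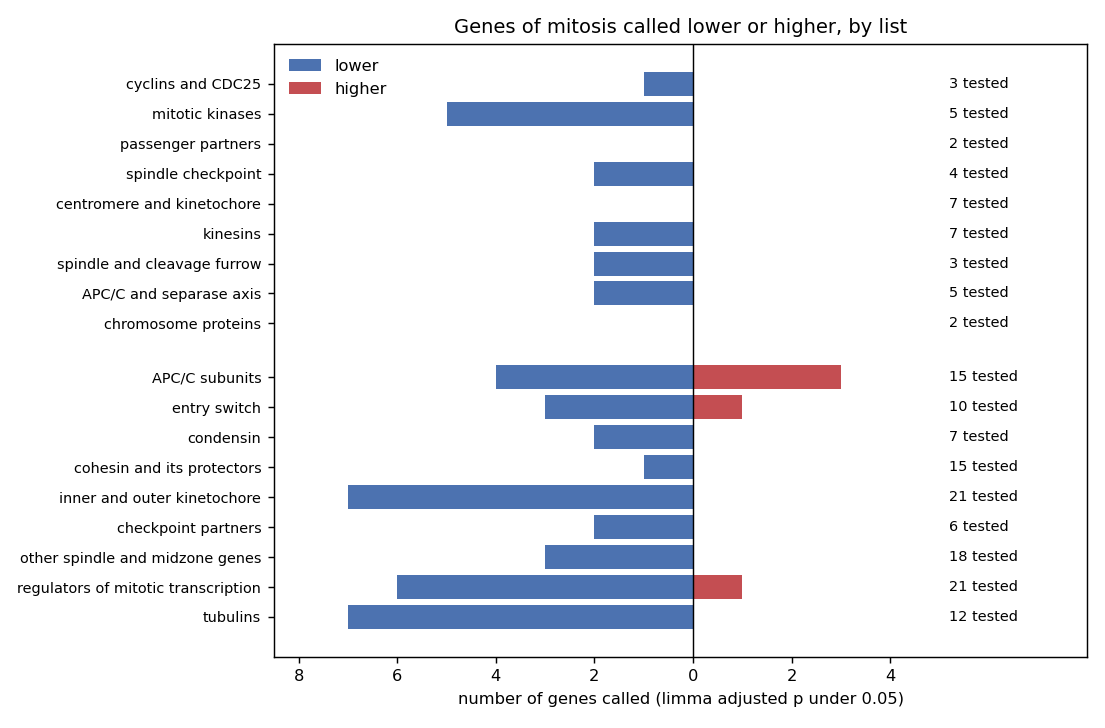
Number of genes that fell (blue, to the left) or rose (red, to the right) in siSpt6 at a limma adjusted p under 0.05, by role of the 38 genes (upper block) and by list of the 125 other genes of mitosis (lower block), with the number tested at the right. Rises occur in 3 lists only, with 3 among APC/C subunits, 1 in the entry switch and 1 among regulators of transcription.

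The regulators of mitotic transcription held the largest change of these lists. Of 21 measured, 6 fell (28.6%) and 1 rose. Over all genes 9.65% fell and 7.4% rose, and at or above the median level 15.2% and 8.38%. Mybl2, encoding B-Myb, fell from 194 ± 17.3 to 76.3 ± 10.3 (intensity ± SD, n = 3 each), a change of -1.35 (SE 0.15, limma adjusted p = 0.00227). Tfdp1, the dimerization partner of E2F proteins, fell by 0.85 on the log2 scale (limma adjusted p = 0.00795). Rb1, encoding the retinoblastoma protein, rose by 0.78, a call that ended after quantile normalization and on removal of 5 of the 6 single arrays (limma adjusted p at most 0.123). Nfyb, a subunit of NF-Y, fell by 0.65 (limma adjusted p = 0.00878), while Nfya and Nfyc did not pass (changes -0.42 and 0.25); these 3 were singled out after their values were seen, and so were E2f1, Myb and E2f3, the other 3 that fell (changes -0.69, -0.72 and -0.61). E2f1 kept its call with any array left out, while Myb and E2f3 missed the threshold without siControl replicates 1 or 2 or siSpt6 replicates 1 or 2 (limma adjusted p at most 0.0608 and 0.0712). The MuvB subunits Lin9, Lin37, Lin54 and Rbbp4, also singled out after their values were seen, did not pass, with changes from -0.34 to -0.05. Foxm1 was matched to no named probe and is not analysed here.

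In the entry switch, 3 of 10 genes fell and 1 rose, where 9.65% of all genes fell and 7.4% rose. Among genes at or above the median level the shares were 15.2% and 8.38%. Cdc25a, the phosphatase that activates CDK2 and CDK1, fell from 468 ± 52.3 to 231 ± 14.4, a change of -1.01 (limma adjusted p = 0.00424). Pkmyt1, a kinase that inhibits CDK1, fell by 0.92 (limma adjusted p = 0.0118), so a gene for an activator and one for an inhibitor of CDK1 were both lower. Arpp19, an inhibitor of the phosphatase PP2A in mitosis, rose by 0.59 (limma adjusted p = 0.0425), a call that ended on removal of each of the 6 arrays in turn. Cks1b, a CDK-binding subunit, was the remaining fall (change -0.48, limma adjusted p = 0.0440). A second, very dim probe of Cks1b went the other way without passing (change 0.44), and the fall was lost after both normalizations and on removal of each of the 6 arrays in turn. Haspin, singled out after its values were seen, did not pass by its brightest probe (change -0.26, limma adjusted p = 0.29). A second, dim probe of Haspin was higher in siSpt6 (change 1.23, limma adjusted p = 0.034) and is not counted above. Wee1, the other kinase that inhibits CDK1 and likewise singled out after its value was seen, did not pass (change -0.36, limma adjusted p = 0.198).

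In the deposited values, subunits and helpers of the APC/C moved in both directions, with 4 falls (26.7%) and 3 rises among 15. Over all genes 9.65% fell and 7.4% rose, and at or above the median level 15.2% and 8.38%. The 4 falls became 0 after quantile normalization and 2 after cyclic loess, and the rises remained 3 under both. Anapc13 rose from 513 ± 29.4 to 1044 ± 111 (change 1.02, limma adjusted p = 0.00374), and Anapc15 rose from 32.8 ± 4.96 to 72.9 ± 9.39 (change 1.15, limma adjusted p = 0.00533). Both are small subunits, and both kept their calls under both normalizations and with any array left out. Anapc5, a scaffold subunit, fell from 2744 ± 208 to 1681 ± 115 (change -0.71, limma adjusted p = 0.0105), a call lost after quantile normalization (limma adjusted p = 0.0744). Ube2s, which extends ubiquitin chains for the APC/C, fell by 0.47 (limma adjusted p = 0.0348), which ended under both normalizations and on removal of each of the 6 arrays in turn. The other calls were a rise of Anapc10 (change 0.52) and falls of Cdc23 and Anapc1 (changes -0.66 and -0.51); each ended on removal of at least 5 of the 6 single arrays.

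Of 21 further kinetochore genes 7 fell (33.3%) and 0 rose. The shares were 9.65% and 7.4% over all genes, and 15.2% and 8.38% at or above the median level. The 7 falls became 5 after either normalization. They numbered 2, 1 and 4 without siControl replicates 1, 2 and 3, and 1, 2 and 5 without siSpt6 replicates 1, 2 and 3. Nsl1, a subunit of the MIS12 complex, fell from 121 ± 14.6 to 51.1 ± 5.46 (change -1.24, limma adjusted p = 0.00297), and Cenpu, of the inner kinetochore, fell by 0.58 (limma adjusted p = 0.0160). Kinetochore genes outside the 7 described above did include falls. Of 6 checkpoint partners 2 fell (33.3%). Trip13, the ATPase that remodels MAD2, fell from 502 ± 52.9 to 212 ± 25.6 (change -1.25, SE 0.15, limma adjusted p = 0.00297). Zwilch was the other (change -0.52, limma adjusted p = 0.0246). Nsl1 and Trip13 kept their calls under both normalizations and with any array left out. The call of Cenpu was lost without 3 single arrays, siControl replicates 1 and 2 and siSpt6 replicate 1 (limma adjusted p up to 0.0571), and that of Zwilch on removal of 5 of the 6 single arrays (limma adjusted p at most 0.0779).

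Of 7 condensin genes 2 fell (28.6%), against 9.65% of all genes and 15.2% of genes at or above the median level. Smc4, a core subunit, fell from 2457 ± 291 to 1273 ± 183 (change -0.95, limma adjusted p = 0.00938), and Ncapd3, of condensin II, fell by 0.53 (limma adjusted p = 0.0237, ended by removal of 5 of the 6 single arrays). Of 15 cohesin genes 1 fell (6.67%), a share below that of all genes. It was Sgo1 (shugoshin), which protects centromeric cohesion (change -0.87, limma adjusted p = 0.0178). That call was lost without siControl replicates 1 or 2 or siSpt6 replicates 1 or 3 (limma adjusted p up to 0.0570). Of 18 other spindle and midzone genes 3 fell (16.7%), close to the 15.2% of genes at or above the median level. Among them were Hmmr, a spindle pole protein (change -0.76, limma adjusted p = 0.0140), and Kif15, a spindle kinesin (change -0.94, limma adjusted p = 0.0310). Hmmr missed the threshold under both normalizations and without siSpt6 replicate 2 (limma adjusted p = 0.0511). Kif15 missed it without siControl replicates 1 or 3 or siSpt6 replicates 1 or 2 (limma adjusted p up to 0.0928). Of 12 genes for tubulins and gamma-tubulin complex proteins, 7 fell (58.3%) and 0 rose. Over all genes 9.65% fell and 7.4% rose, and at or above the median level 15.2% and 8.38%. All 7 falls were in tubulins. The smallest adjusted p was in Tubb6 (change -0.61, limma adjusted p = 0.0111) and Tubb3 (change -0.56, limma adjusted p = 0.0163). Tubb3 missed the threshold without siControl replicates 1 or 3 or siSpt6 replicate 1 (limma adjusted p up to 0.0541). The 7 tubulin falls became 4 after quantile normalization and 5 after cyclic loess. They numbered 2, 2 and 5 without siControl replicates 1, 2 and 3, and 3, 4 and 5 without siSpt6 replicates 1, 2 and 3. Some of these tubulins are close paralogs, and their probes may share signal.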

How the data were processed

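Per the labels' protocols, RNA from 6 samples was isolated on RNeasy columns, amplified with amino allyl nucleotides, dyed with Cy5 and hybridised to TORAY arrays. The authors deposited 1 table of linear intensity values; the way background was removed and arrays were scaled was not given in the sources used here. All values exceeded 0, and between 4.69% and 8.29% were blank and taken as missing. No detection limit accompanies the values.

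Values were log2-transformed with no pseudocount. Probes were named from a table of gene symbols, updated through RefSeq (16631 named, of which 3947 by an older symbol; 6842 unnamed). A probe needed a value on at least 2 of 3 arrays per group (21584 probes). Limma 3.58.1 in R 4.3.3 (lmFit, eBayes, group as only term, two-sided) was used, with Benjamini-Hochberg adjustment over all probes; "fell" and "rose" mean an adjusted p under 0.05. The code was tested on simulated data. The genes described and all lists were chosen with earlier results of these data known. Every measured gene of the 43 is named, and of each other list at most 2 genes per direction, ranked by adjusted p, with further names marked as such or given as the remaining calls of a list. Alternatives were quantile, cyclic loess and median scaling, probe filters, a pseudocount of 2.66, eBayes options, weighted arrays, replicate number as block, left-out arrays, the mean of a gene's probes and a threshold of 0.01.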

Additional observations from a re-analysis of the deposited data

How the results depend on the processing

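All 38 mitotic genes kept a negative estimate under every alternative in which they were tested, and 0 rose in any. The 14 falls became 6 and 7 after quantile and cyclic loess normalization (median log2 change -0.23 and -0.26), 22 with bright probes only, 22 with trend and robust options (where Prc1 was lost and Birc5, Ccnb2, Cdc20, Cdc25b, Cenpa, Kif22, Kif2c, Kif4 and Top2a were gained), and 3 (Cdk1, Tpx2 and Ttk) at a threshold of 0.01. The count of falls ranged from 4 to 12 with 1 array left out, and the median from -0.47 to -0.37. Of the other mitotic genes, 35 fell in the main analysis, against 23 after quantile normalization, 56 with bright probes only, 54 with trend and robust options and 7 at the threshold of 0.01, where 2 rose; the falls ranged from 14 to 27 and the rises from 2 to 3 with 1 array left out. Changed probes numbered 3525, against 1354 at the threshold of 0.01 and 2099 to 2522 with 1 array left out. The Supt6 difference passed after cyclic loess (-0.42, limma adjusted p = 0.0491) and ranged from -0.47 to -0.29 with 1 array left out. The smaller counts at 0.01 follow from the stricter rule. Runs without 1 array have fewer samples, but their counts also differed with the array removed. The cause was not tested for these runs or for the other settings. Same-numbered arrays correlated in their deviations by 0.351, 0.0759 and 0.262, and each array correlated best with its own number. The labels do not state pairs, so the main analysis used none, and its p-values ignore any effect shared by same-numbered arrays. With the replicate block 12 of the mitotic genes fell, with Kif11, Nek2 and Ube2c lost and Top2a gained, and 3594 probes changed. The number of arrays limits the precision, and dim probes such as that of Prc1 have no known background.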
